A study of Mus musculus with 6 samples.

Results

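Mucins are large glycoproteins whose long serine- and threonine-rich stretches carry dense O-linked sugar chains. Gel-forming mucins are secreted by goblet cells and, in the stomach and airways, by other mucous cells, and polymerise into the mucus gel; Muc2 is the building block of the mucus layers of the colon. Transmembrane mucins stay anchored in the apical membrane of epithelial cells, where they form the glycocalyx. The family was examined here in colon tumors and colon tissue of mice with colorectal cancer (CRC), to see which mucin transcripts differed between them. Its 10 members were chosen by gene symbol (Muc1, Muc2, Muc3, Muc4, Muc5ac, Muc5b, Muc6, Muc13, Muc16 and Muc20), of 33573 genes in the deposited table. By symbol 9 of the 10 were matched to a row there. Muc6, a mucin of gastric glands, was not analysed by name, but a row without a symbol at its place beside Muc2 is described with the members.

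RNA-seq was performed on bulk colon tumors (3 libraries) and bulk colon tissue (3 libraries) of C57BL/6 mice, numbered 2, 4 and 20 in both tissues. Both tissues came from mice bearing tumors after azoxymethane (AOM), a carcinogen, and dextran sodium sulfate (DSS), which injures the colon epithelium, so that no library came from an unexposed mouse. Per the study's methods, male mice aged 8 to 10 weeks received 10 mg per kg AOM by intraperitoneal injection, then 2.5% DSS in drinking water in 3 rounds, each followed by plain water. The methods place the killing of AOM/DSS mice for tumor analysis in week 16, without saying so for the sequenced samples in particular. The design describes the tissues as paired, but nothing in the labels ties a number to 1 animal or tells whether tissue was pooled, so the p-values reflect only how these samples vary.

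Each library held between 16995481 and 20789620 counts, and no library stood apart from its group. Of 18520 genes that passed the count filter, 16.1% were called higher and 16.1% lower in tumor by edgeR (quasi-likelihood test, Benjamini-Hochberg adjusted p under 0.05), and the median log2 fold change of all tested genes was 0.01. Levels are given as CPM, the count relative to the library total scaled by trimmed mean of M-values, and as FPKM, which also corrects for exon length, where different genes are compared. All fold changes are tumor over colon on the log2 scale with standard error, n = 3 libraries per tissue, and every adjusted p is from that edgeR test unless another tool is named. The summed level of 12 pan-epithelial genes overlapped between the tissues, at 9703 to 11216 CPM in tumor and 10317 to 11550 CPM in colon, with 2 of the 12 called higher and 0 lower in tumor. The summed level of 8 colonocyte markers was 1272 to 2736 CPM in tumor and 3665 to 5446 CPM in colon. Ceacam1 gave the largest part of that sum. Of the 8 markers 6 were called lower and 0 higher, with log2 fold changes between -0.53 for Krt20 and -4.60 for Aqp8. The summed level of 8 smooth muscle genes was 435 to 914 CPM in tumor and 7705 to 8013 CPM in colon. In bulk tissue, fewer cells of a type and less RNA per cell cannot be told apart, and the part of these shifts in cell types in the results below was not tested.

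RefSeq promoter windows of build GRCm38.p6, from 250 bases before to 50 bases after the gene start, were found for 8 of the 10 members, with 9 windows in all. Muc2 and Muc3 are shown as the mucins that were lower in tumor, Muc4 as the one nearest to the threshold, and Muc1 as the tested mucin with a fitted change above zero. Each window is written 5′ to 3′ on the gene's strand, and capitals mark matches to the searched motifs on either strand.
Muc2, chr7:141690090-141690389, plus strand: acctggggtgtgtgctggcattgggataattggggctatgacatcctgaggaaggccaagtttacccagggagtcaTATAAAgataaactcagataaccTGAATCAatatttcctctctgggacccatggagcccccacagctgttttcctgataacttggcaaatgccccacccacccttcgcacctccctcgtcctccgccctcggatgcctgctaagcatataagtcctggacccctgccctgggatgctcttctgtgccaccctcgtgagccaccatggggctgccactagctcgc
Muc3, chr5:137165997-137166296, minus strand: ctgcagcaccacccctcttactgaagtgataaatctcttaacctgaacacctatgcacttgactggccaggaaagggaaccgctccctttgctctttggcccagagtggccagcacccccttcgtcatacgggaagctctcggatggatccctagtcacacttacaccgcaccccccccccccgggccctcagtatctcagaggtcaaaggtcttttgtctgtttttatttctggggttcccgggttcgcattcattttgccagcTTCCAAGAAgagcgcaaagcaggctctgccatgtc
Muc4, chr16:32735636-32735935, plus strand: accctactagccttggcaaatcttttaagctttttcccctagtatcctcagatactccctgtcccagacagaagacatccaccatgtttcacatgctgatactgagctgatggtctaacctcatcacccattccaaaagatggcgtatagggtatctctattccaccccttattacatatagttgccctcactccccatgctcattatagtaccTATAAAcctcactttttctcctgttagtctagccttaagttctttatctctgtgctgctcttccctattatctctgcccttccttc
Muc1, chr3:89228806-89229105, plus strand: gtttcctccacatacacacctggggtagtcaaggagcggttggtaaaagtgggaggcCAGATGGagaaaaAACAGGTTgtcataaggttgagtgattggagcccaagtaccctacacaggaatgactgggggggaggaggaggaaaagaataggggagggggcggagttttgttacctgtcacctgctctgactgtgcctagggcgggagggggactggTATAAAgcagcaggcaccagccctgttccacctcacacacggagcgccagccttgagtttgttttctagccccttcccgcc

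The motifs searched on both strands were TATAAA for the core promoter box, CTTTGAT for TCF/LEF, CCATAAA for CDX, TGTTTAC for FOXA, CCACACCC for KLF, TGANTCA for AP-1, TTCNNNGAA for STAT factors, AACCNGTT for GRHL and CAGATGG for an E-box of ATOH1, the goblet cell lineage factor. Positions count from 1 at the start base, with negative values before it. In Muc1 and Muc4 the TATAAA match began at -31 and -36, while in Muc2 it began at -174. Only the exact letters were searched. The Muc2 window holds the variant TATAAG nearer the gene start, and the Muc6 window holds it too, but these were not counted. TATAAA was present in 13.6% of the 32851 promoter windows of the table. The AP-1 letters were matched in Muc2 at -151 and in both windows of Muc13 at -61 and -179, against 7.81% of all windows. The STAT letters were matched in Muc3 at 16 and in the first window of Muc13 at -140, against 8.3% of all windows. In Muc1 the GRHL letters were matched at -180, on the minus strand of its window, against 2.09% of all windows. Muc1 also held the CAGATGG letters at -193, which 5.3% of windows hold. The only match in Muc20 was FOXA at -248, on the minus strand of its window, against 3.65% of all windows. The windows of Muc6 and Muc16 held none of the searched letters. No searched motif was shared by the RefSeq windows of Muc2 and Muc3, the mucins that were called lower. The matches describe letters only, and the RefSeq starts were not compared with the gene models behind the counts, which use build GRCm39. A window may therefore not lie at the start of the gene as counted, which was not settled for Muc3 or any other member.

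Of the 9 mucins with a row, 6 passed the count filter: Muc2, the gel-forming mucin of the colon, and the transmembrane mucins Muc1, Muc3, Muc4, Muc13 and Muc20. Among these 6, 2 were called lower in tumor (Muc2 and Muc3) and 0 were called higher, beside 16.1% of all tested genes in each direction. At an unadjusted p under 0.05 there were 4 lower and 0 higher mucins by edgeR. The share of all tested genes at that threshold was not computed, but is at least the 16.1% per direction called after adjustment. By DESeq2 the adjusted calls were 3 lower and 0 higher, beside 3513 lower and 3329 higher of 18505 genes. By limma-voom they were 2 lower and 0 higher, beside 3004 lower and 2880 higher of 18520 genes. The median log2 fold change of the 6 tested mucins was -1.54. The row without a symbol beside Muc2 is not among these 6 and was called higher. The 3 mucins below the filter were Muc5ac, Muc5b and Muc16.

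**Figure D1:**
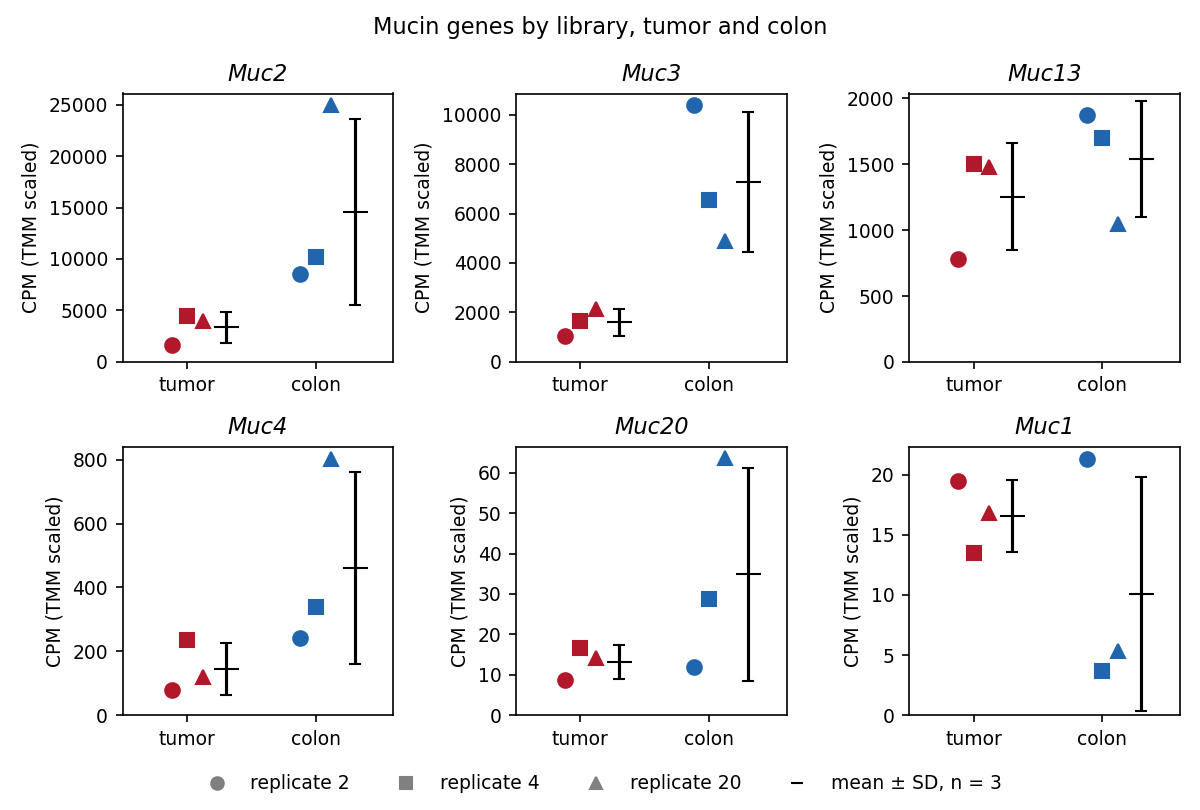
Level of each tested mucin in CPM (vertical axis, linear and starting at 0) in the 3 tumor libraries (red) and the 3 colon libraries (blue), with marker shapes for replicates 2, 4 and 20 and black bars for mean ± SD. In CPM the tumor libraries of Muc2, Muc3 and Muc4 lie below all colon libraries, whereas the tissues overlap for Muc13, Muc20 and Muc1. In the deposited FPKM Muc4 overlaps as well, and the share of all tested genes without overlap was not computed.

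Muc2 (ENSMUSG00000025515) is encoded on the plus strand of chromosome 7 from 141276583 to 141308430 in GRCm39, with 13916 exon bases. It reached 1636, 4492 and 3986 CPM in tumor replicates 2, 4 and 20, against 8517, 10213 and 24911 CPM in colon replicates 2, 4 and 20. All tumor libraries were below all colon libraries, and colon replicate 20 stood well above the other colon libraries. Lack of overlap is a description only, here and below, since the share of all tested genes without overlap was not computed. Muc2 averaged 3372 ± 1524 CPM in tumor and 14547 ± 9015 CPM in colon (SD, n = 3 each). Muc2 fell in tumor, with a log2 fold change of -2.11 ± 0.52 (adjusted p = 0.0205, edgeR), which is 4.31-fold more in colon than in tumor. It was lower in the tumor library of every number, by a log2 ratio of -2.38, -1.18 and -2.64 for numbers 2, 4 and 20. Without tumor replicate 20 the call was lost at a log2 fold change of -2.24 (adjusted p = 0.0571, edgeR), and without colon replicate 20 it held at -1.47 (adjusted p = 0.0446, edgeR).

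Muc3 (ENSMUSG00000037390) lies on the minus strand of chromosome 5 from 137163770 to 137202830, with 14181 exon bases, and encodes a transmembrane mucin of the enterocyte brush border. Its level was 1034, 1670 and 2122 CPM in tumor replicates 2, 4 and 20, against 10386, 6537 and 4884 CPM in colon replicates 2, 4 and 20. The tissues did not overlap, and the order of the colon libraries was the opposite of that of Muc2, with replicate 2 highest and replicate 20 lowest. Muc3 fell by a log2 fold change of -2.18 ± 0.35 (adjusted p = 0.00458, edgeR), which is 4.52-fold more in colon than in tumor. The log2 ratio of tumor to colon was -3.33, -1.97 and -1.20 for numbers 2, 4 and 20. The call held in all 19 alternatives run for Muc3, at adjusted p-values between 5.68e-10 by DESeq2 and 0.0217.

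A neighbouring gene, Muc3a (ENSMUSG00000094840), also carries a mucin 3 name and lies 40439 bases from Muc3 on the same strand. It is not one of the 10 members. Muc3a had 18.6, 40.2 and 31.9 CPM in tumor replicates 2, 4 and 20, against 94.8, 145 and 204 CPM in colon replicates 2, 4 and 20. The tissues did not overlap, and its colon libraries followed the order of Muc2 rather than that of Muc3. Muc3a fell by a log2 fold change of -2.29 ± 0.36 (adjusted p = 0.0041, edgeR). A BLAST search set for closely similar stretches, between the longest GENCODE M21 transcripts of Muc3 and Muc3a, found 0 aligned bases. It could not show weaker similarity. With the counts of Muc3 and Muc3a summed, the log2 fold change was -2.18 (adjusted p = 0.00427, edgeR).

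Muc4 (ENSMUSG00000118672, chromosome 16 from 32555015 to 32602754, plus strand) encodes a large transmembrane mucin that in rats and humans was described as a partner of the receptor ErbB2. It was measured at 77.3, 237 and 120 CPM in tumor replicates 2, 4 and 20, against 242, 338 and 804 CPM in colon replicates 2, 4 and 20. The tissues did not overlap in CPM, but tumor replicate 4 was close to colon replicate 2, and in the deposited FPKM it was above it (19.5 FPKM in tumor replicate 4 and 18.6 FPKM in colon replicate 2). The log2 fold change was -1.67 ± 0.55 and did not pass the test (adjusted p = 0.0537, edgeR). With the number as a block, the log2 fold change was -1.63 and passed (adjusted p = 0.0458, edgeR), which made 3 mucins lower in tumor in the paired fit. Muc4 also passed with no count filter (adjusted p = 0.0202, edgeR), without tumor replicate 4 (adjusted p = 0.025) and without colon replicate 2 (adjusted p = 0.0374, edgeR). Without colon replicate 20 the log2 fold change was -1.0 (adjusted p = 0.157, edgeR), and without tumor replicate 2 it was -1.36 (adjusted p = 0.128, edgeR).

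Muc20 (ENSMUSG00000035638, chromosome 16 from 32597793 to 32617805, minus strand), a transmembrane mucin that in human cells was described to bind the receptor MET, overlaps Muc4 on the opposite strand over 4962 bases. The library kit was stranded, but the strand setting of the counting was not given in the sources used here. Without strand, reads in the overlap could not be told apart. Muc20 reached 8.59, 16.6 and 14.3 CPM in tumor replicates 2, 4 and 20, against 12.03, 28.9 and 63.7 CPM in colon replicates 2, 4 and 20. The tissues overlapped through colon replicate 2, the lowest colon library. The log2 fold change was -1.41 ± 0.56 and did not pass (adjusted p = 0.0981, edgeR), whereas Muc20 passed by DESeq2 (adjusted p = 0.0196) and without colon replicate 2 (adjusted p = 0.0205, edgeR). Without colon replicate 20 its log2 fold change was -0.64 (adjusted p = 0.331, edgeR). With Muc4 and Muc20 counts summed, the log2 fold change was -1.65 and did not pass (adjusted p = 0.0543, edgeR).

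Muc13 (ENSMUSG00000022824, chromosome 16 from 33614407 to 33640304, plus strand) encodes a transmembrane mucin that is abundant on the surface of the large intestine. It was at 784, 1503 and 1477 CPM in tumor replicates 2, 4 and 20, against 1878, 1697 and 1045 CPM in colon replicates 2, 4 and 20. Tumor replicates 4 and 20 were above colon replicate 20, so that the tissues overlapped. The log2 fold change was -0.30 ± 0.30 and did not pass (adjusted p = 0.493, edgeR). Within numbers the sign was mixed, with log2 ratios of -1.26, -0.18 and 0.50 for numbers 2, 4 and 20. Muc13 did not pass in any of its 19 alternatives. Its gene overlaps the antisense gene Gm15657 over 2838 bases.

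Muc1 (ENSMUSG00000042784, chromosome 3 from 89136364 to 89140688, plus strand), a transmembrane mucin of the apical surface of many epithelia, was the only tested mucin with a fitted change above zero. It was measured at 19.5, 13.5 and 16.8 CPM in tumor replicates 2, 4 and 20, against 21.3, 3.68 and 5.32 CPM in colon replicates 2, 4 and 20. Colon replicate 2 was the highest of all 6 libraries, and the other colon libraries were the lowest. The log2 fold change was 0.71 ± 0.61 and did not pass (adjusted p = 0.408, edgeR). Without colon replicate 2, Muc1 was called higher in tumor at a log2 fold change of 1.87 (adjusted p = 0.00661, edgeR). The log2 ratio was -0.13, 1.87 and 1.66 for numbers 2, 4 and 20.

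**Figure D2:**
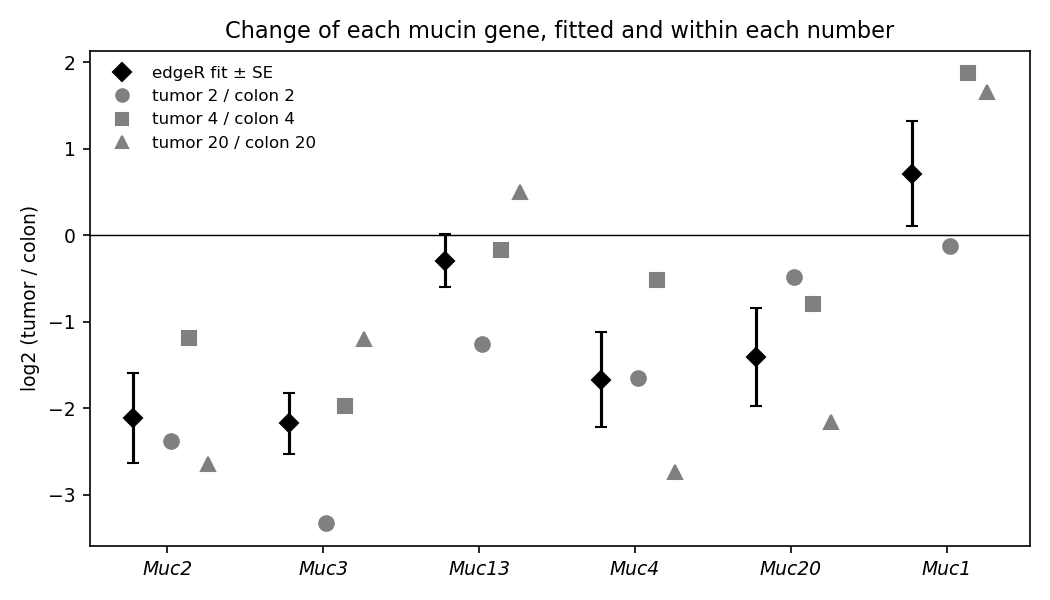
Log2 ratio of tumor over colon (vertical axis) for each tested mucin, as the edgeR estimate ± SE from all 6 libraries (black) and as the ratio of the tumor to the colon library of the same number (gray shapes for numbers 2, 4 and 20). Muc2, Muc3, Muc4 and Muc20 lie below 0 for all 3 numbers, while Muc13 and Muc1 have ratios on both sides of 0.

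A protein-coding row without a symbol, ENSMUSG00000118661 (chromosome 7 from 141213373 to 141241641, minus strand), was singled out after its values were seen. It lies between Ap2a2 and Muc2, with a gap of 34941 bases to Muc2 in GRCm39. In the RefSeq annotation of GRCm38.p6 the gene between Ap2a2 and Muc2 is Muc6, also on the minus strand, with a gap of 34946 bases. The row thus holds the place of Muc6, but neither the deposited table nor the reference tables pair this identifier with a name. The reference names give Muc6 another identifier. The row was therefore not counted as a member. Its level was 62.2, 35.4 and 45.2 CPM in tumor replicates 2, 4 and 20, against 1.36, 2.15 and 6.31 CPM in colon replicates 2, 4 and 20. All tumor libraries were above all colon libraries, the opposite of Muc2 beside it. The row rose by a log2 fold change of 3.86 ± 0.56 (adjusted p = 0.00299, edgeR), which is 14.5-fold, and the call held in all 6 fits that left out a library. The log2 fold change was 4.77 without colon replicate 20 (adjusted p = 0.00163, edgeR), and 1.79 by limma on log2(FPKM + 1), a scale that understates the change of low genes.

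The colon libraries differed among themselves by member. Colon replicate 20 was the highest colon library for Muc2, Muc4 and Muc20 and the lowest for Muc3 and Muc13, while colon replicate 2 was the highest for Muc1, Muc3 and Muc13. The highest colon library held 2.92 times the Muc2 level of the lowest. The 3 colon libraries thus did not share 1 ranking across the mucins.

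Muc5ac, the mucin of gastric surface cells, Muc5b, a mucin of airways and salivary glands, and Muc16, the carrier of the CA125 antigen on ocular and mesothelial surfaces, were near or at 0. Muc5ac (chromosome 7 from 141342709 to 141372968) had 1 count over the tumor libraries and 1 over the colon libraries. Muc5b (chromosome 7 from 141392807 to 141426821) had 0 counts over the tumor libraries, against 0, 1 and 8 counts in colon replicates 2, 4 and 20. With a floor of 3 counts set for the tumor group, that is 3.15-fold lower in tumor. The exact 95% counting interval of the ratio of tumor to colon reached up to 0.483, which allows a smaller fall. Without colon replicate 20 a single count was left, so that no fold was given. Muc16 (chromosome 9 from 18406751 to 18585826) had 7, 0 and 36 counts in tumor replicates 2, 4 and 20, against 1, 0 and 14 counts in colon replicates 2, 4 and 20. Most counts of Muc16 came from replicate 20 of each tissue. The ratio of its summed level was 2.73 tumor over colon (95% exact counting interval 1.49 to 5.29), was 0.640 without tumor replicate 20 (0.221 to 1.67), and was 26.6 without colon replicate 20 (4.52 to 1074). These intervals cover counting error only. In a single library 3 counts, the limit that a count of 0 allows, were worth 0.144 to 0.177 CPM.

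Markers of tissues in which these mucins are known were measured beside them. Beside these counts of called markers, 16.1% of all tested genes were called in each direction. That share is no fair yardstick, since markers near 0 in colon passed the count filter only through tumor and could hardly be called lower. Of 6 tested gastric genes 4 were called higher and 0 lower in tumor, but their summed level, which Ctse dominated, overlapped at 72.1 to 125 CPM in tumor and 61.9 to 133 CPM in colon. Summed tumor and colon counts of gastric markers were 40 and 0 for Tff1, 5 and 5 for Tff2, and 9 and 1 for Gkn1. They were 27 and 0 for Pgc and 22 and 0 for Anxa10. The 4 gastric genes called higher were Gkn3 (134 and 5), Cldn18 (50 and 1), Aqp5 (185 and 4) and Sox2 (127 and 14). Of 7 tested squamous genes 5 were called higher and 0 lower in tumor, with a summed level of 62.0 to 114 CPM in tumor and 4.44 to 12.9 CPM in colon. In summed tumor and colon counts, the 5 were Krt14 (2878 and 70), Krt4 (321 and 4), Krt6a (741 and 14), Dsg3 (437 and 20) and Lor (100 and 14). Krt5, which was below the count filter, was at 0 counts in tumor with 12 in colon, while Trp63 was at 0 in both tissues. For mesothelium Msln was called higher, while Upk3b had 1 count and Lrrn4 and Wt1 had 0 in tumor. Neutrophil genes were also higher in tumor, with 5 of 6 called and a summed level of 126 to 245 CPM in tumor and 12.1 to 73.4 CPM in colon. Their part in the mucin results was not tested.

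Length-corrected levels were used to compare mucins with each other within a library. In tumor the order by mean FPKM was Muc13 at 430 ± 137, Muc2 at 252 ± 113, Muc3 at 118 ± 38.4, Muc4 at 11.8 ± 6.82, Muc1 at 7.37 ± 1.36 and Muc20 at 3.40 ± 1.05 (SD, n = 3). In colon it was Muc2 at 996 ± 599, Muc3 at 494 ± 201, Muc13 at 488 ± 146, Muc4 at 34.4 ± 21.8, Muc20 at 8.23 ± 6.09 and Muc1 at 4.17 ± 4.08 FPKM (SD, n = 3). Neighbours in these orders overlapped between libraries except Muc3 and Muc4 and also Muc1 and Muc20 in tumor, and Muc13 and Muc4 and also Muc4 and Muc20 in colon. Within each tumor library, Muc13 was above Muc2 and Muc2 above Muc3. Among all 33573 genes, Muc13 ranked 51 in tumor and 61 in colon by mean FPKM, Muc2 ranked 118 in tumor and 23 in colon, and Muc3 ranked 329 in tumor and 59 in colon.

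Summed over the 9 measured members, mucin transcripts reached 822 ± 288 FPKM in tumor and 2024 ± 352 FPKM in colon (SD, n = 3 each), which is 2.46 times as much in colon. The gel-forming mucins, nearly all Muc2, summed to 252 ± 113 FPKM in tumor and 996 ± 599 FPKM in colon. The transmembrane mucins summed to 570 ± 176 FPKM in tumor and 1029 ± 314 FPKM in colon. By counts the 9 rows took 0.667 ± 0.253% of all counts in tumor and 2.28 ± 0.620% in colon. No test was run on these sums, since they follow from members already tested.

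The make-up of the mucin transcripts differed as well. Muc13 made up 55.5%, 51.3% and 51.6% of summed mucin FPKM in tumor replicates 2, 4 and 20, against 31.0%, 31.2% and 13.4% in colon replicates 2, 4 and 20. The shares of Muc13 did not overlap, and averaged 52.8 ± 2.34% in tumor and 25.2 ± 10.2% in colon. A share depends on the other members, and Muc13 itself overlapped between the tissues. Muc2 took 29.7 ± 4.15% in tumor and 47.2 ± 20.3% in colon, and Muc3 took 14.6 ± 2.06% in tumor and 25.3 ± 11.6% in colon, both with overlapping libraries. The tumor libraries resembled each other more than the colon libraries did, with Muc2 between 25.3% and 33.5% in tumor and between 30.7% and 69.9% in colon. Muc4 took 1.41% in tumor and 1.63% in colon, Muc1 1.05% in tumor and 0.210% in colon, and Muc20 0.421% in tumor and 0.390% in colon.

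**Figure D3:**
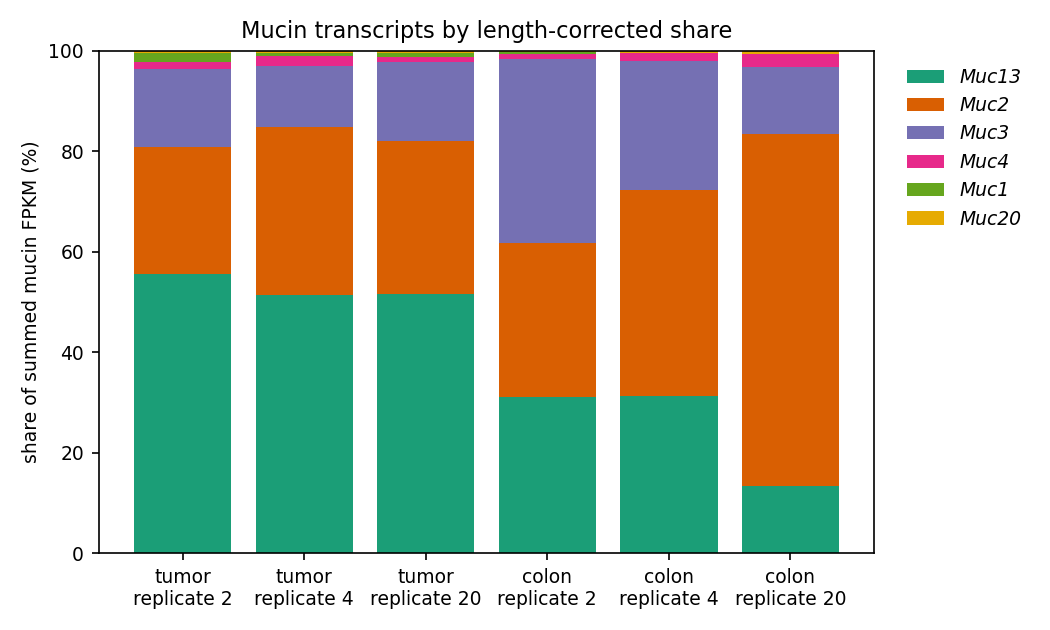
Share of each mucin in the summed mucin FPKM (vertical axis, percent) in each library, tumor on the left and colon on the right. Muc13 takes 51.3% to 55.5% in the 3 tumor libraries and 13.4% to 31.2% in the 3 colon libraries, and Muc2 takes 69.9% in colon replicate 20.

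Genes that work with mucins were described by lists of the pathway, by counts and medians. Beside these stand the 16.1% of all tested genes called in each direction and their median log2 fold change of 0.01. The lists were chosen with earlier results of these data known, so this comparison is a description and not a test. Secreted proteins of the mucus layer had 5 of 10 called lower and 1 called higher in tumor, with a median log2 fold change of -2.10. Fcgbp, a mucus protein that is bound to Muc2 in the gel, averaged 1036 ± 426 CPM in tumor and 7370 ± 4141 CPM in colon and fell by a log2 fold change of -2.83 (adjusted p = 0.00539, edgeR). Zg16, a lectin that binds bacteria in the mucus, averaged 257 ± 101 CPM in tumor and 1282 ± 368 CPM in colon and fell by -2.32 (adjusted p = 0.00317, edgeR). Lypd8, a protein that coats flagellated bacteria and had the highest mean level of the list, did not pass at -0.61 (adjusted p = 0.247, edgeR). The exception among the called genes was Itln1, an intestinal lectin of goblet and Paneth cells named after its values were seen, which rose by 3.40 (adjusted p = 0.0267, edgeR) and lost its call without tumor replicate 4 or colon replicate 4.

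Transcription factors of the goblet cell lineage and of secretory cells had 6 of 10 called lower and 0 higher, with a median log2 fold change of -1.33. By edgeR 1 of the 10 was higher at an unadjusted p under 0.05. The share of all tested genes at that threshold was not computed, but is at least the 16.1% per direction called after adjustment. DESeq2 and limma-voom each called 1 higher. Creb3l1, a factor of the secretory machinery, averaged 74.0 ± 22.3 CPM in tumor and 262 ± 55.4 CPM in colon and fell by -1.83 (adjusted p = 0.00225, edgeR). Gfi1, which acts in the choice of the goblet fate, averaged 6.63 ± 1.40 CPM in tumor and 19.2 ± 3.14 CPM in colon and fell by -1.53 (adjusted p = 0.00322, edgeR). Xbp1, a factor of the unfolded protein response and the best expressed of the list, did not pass at -0.19 (adjusted p = 0.25, edgeR). Spdef, which drives goblet cell maturation, fell by -2.04 (adjusted p = 0.0172, edgeR), a call that, like that of Muc2, was lost without tumor replicate 20 (adjusted p = 0.0572). Without colon replicate 20 Spdef was at -1.41 (adjusted p = 0.0326, edgeR).

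The enzymes that start mucin O-glycans (Galnt family) had 6 of 10 called lower and 1 higher, with a median log2 fold change of -0.90. Galnt6 averaged 73.9 ± 11.8 CPM in tumor and 156 ± 9.53 CPM in colon and fell by -1.08 (adjusted p = 0.00191, edgeR). Galnt7 averaged 97.8 ± 22.0 CPM in tumor and 262 ± 32.7 CPM in colon and fell by -1.42 (adjusted p = 0.00213, edgeR). Galnt1, named after its values were seen, rose by 0.52 (adjusted p = 0.0127, edgeR), a call lost without colon replicate 4. Enzymes of O-glycan cores and chain extension had 5 of 8 called lower and 1 higher, with a median of -0.80. B3gnt7 averaged 78.1 ± 61.9 CPM in tumor and 460 ± 114 CPM in colon and fell by -2.56 (adjusted p = 0.0136, edgeR), or by -3.40 without tumor replicate 20. Gcnt4, a branching enzyme, averaged 15.0 ± 5.01 CPM in tumor and 3.34 ± 1.01 CPM in colon and rose by 2.16 (adjusted p = 0.00475, edgeR). B3gnt3, the best expressed of these, fell by -0.80 (adjusted p = 0.0444, edgeR), but its call was lost in 8 of 17 alternatives. Among these were the replicate block (adjusted p = 0.0662, edgeR), pan-epithelial scaling (adjusted p = 0.0665, edgeR), limma on both FPKM scales and 4 of the 6 fits that left out a library. The count of 5 rested on several libraries, since 1 was called lower when tumor 20, colon 4 or colon 20 was left out, and 3 when tumor 2 or colon 2 was left out.

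Enzymes that cap mucin glycans with sialic acid, fucose, sulfate or the Sda sugar had 3 of 9 called lower and 1 higher, with a median log2 fold change of -1.15. St3gal4, a sialyltransferase, averaged 55.7 ± 27.8 CPM in tumor and 241 ± 73.7 CPM in colon and fell by -2.11 (adjusted p = 0.00912, edgeR). Chst4, a sulfotransferase, averaged 21.9 ± 11.5 CPM in tumor and 91.2 ± 45.1 CPM in colon and fell by -2.06 (adjusted p = 0.0213, edgeR), a call lost without tumor replicate 20 or colon replicate 20. St6galnac6, the best expressed of the list, fell by -1.39 (adjusted p = 0.0221, edgeR), a call lost without colon replicate 4 or colon replicate 20. St3gal1, named after its values were seen, rose by 0.67 (adjusted p = 0.0303, edgeR) but kept its call in 1 of the 6 fits that left out a library. Without tumor replicate 4 there were 5 capping enzymes called lower.

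**Figure D4:**
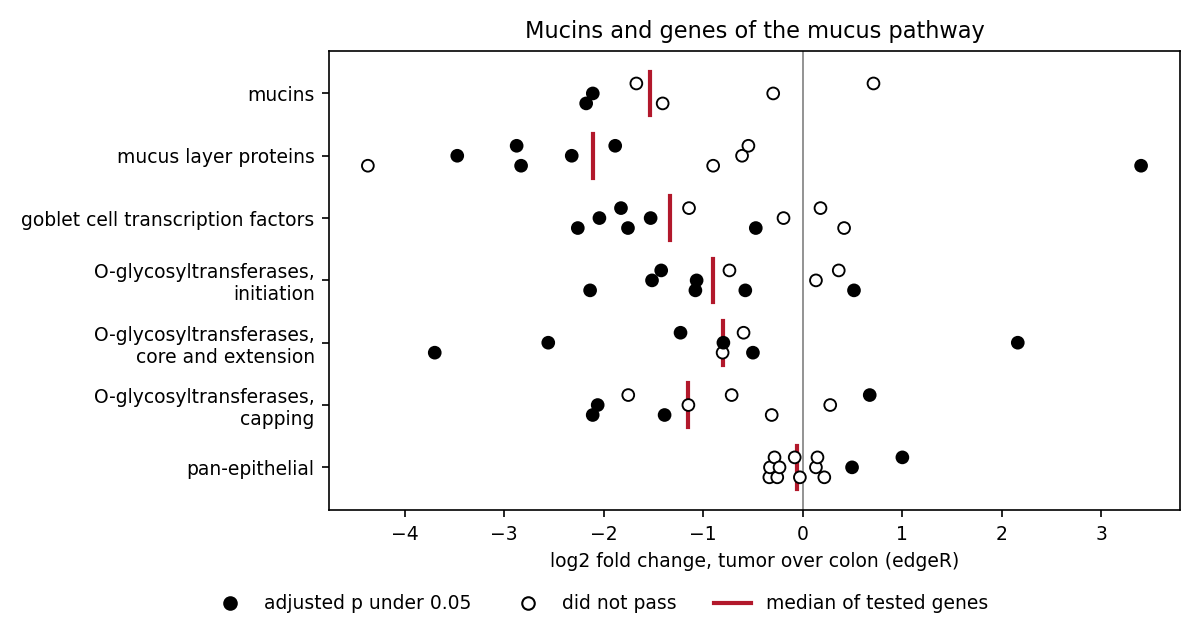
Log2 fold change of tumor over colon (horizontal axis) for the tested genes of the mucins, of 5 lists of the mucus pathway and of the pan-epithelial list, with filled points for an adjusted p under 0.05 by edgeR and a red line at each list's median. The medians run between -2.10 for mucus layer proteins and -0.80 for core and extension enzymes, and the pan-epithelial median is -0.05.

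Other genes named as mucins or mucin-like had 2 of 6 tested members called lower (Muc3a above and Parm1) and 0 higher, with a median log2 fold change of -0.39. By edgeR 3 of them were lower and 0 higher at an unadjusted p under 0.05. The share of all tested genes at that threshold was not computed, but is at least the 16.1% per direction called after adjustment. Parm1, a mucin-like membrane protein, averaged 201 ± 35.02 CPM in tumor and 297 ± 14.0 CPM in colon and fell by -0.56 (adjusted p = 0.0205, edgeR); 1 of the 2 calls was left when tumor 2, tumor 4 or colon 4 was dropped. Cd164, a sialomucin with the highest mean CPM of the list, did not pass at -0.24 (adjusted p = 0.092, edgeR). Muc21, named after its values were seen, had 3, 2 and 19 counts in tumor replicates 2, 4 and 20, against 0 in every colon library. With a floor of 3 counts set for the colon group, it was 7.62-fold higher in tumor, and 2.29-fold higher without tumor replicate 20. The exact 95% counting intervals of these ratios began lower, at 5.74 and 1.26.

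The genes whose profile over the 6 libraries was most like that of each mucin were named by the root mean square difference of centred log2 CPM, among 11965 genes. For Muc2 these were Chst4 (0.15), Slc12a8 (0.15) and Spdef (0.17), where the median gene differed by 1.26. For Muc4 they were Ano7 (0.21), Oasl2 (0.21) and Spdef (0.24), so that Spdef was common to both. For Muc3 they were Ttll6 (0.11), Hsd11b2 (0.12) and Sprr2a2 (0.14), and none of these was shared with Muc2. For Muc20 they were Tex9 (0.14), Phf11d (0.18) and Xaf1 (0.22), and for Muc1 Epb41l4a (0.21), Fstl4 (0.31) and Acta1 (0.34). For Muc13, Hcn3, Zfp37 and Cfap410 each differed by 0.16 where the median gene differed by 0.52. These are descriptions over 6 libraries that share their depth and tissue contrast.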

How the data were processed

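Bulk RNA of 3 tumor and 3 colon samples was sequenced. Per the submitters' processing notes, reads were trimmed with cutadapt and aligned with HISAT to GRCm39; their versions, the counting tool and its strand setting were not given in the sources used here. Fragment counts per gene were deposited by the authors as whole numbers without normalization. FPKM values, deposited by the authors beside them, divide each count by exon length and library total. Total counts ranged between 16995481 and 20789620.

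The quasi-likelihood test of edgeR 4.0.16 was run under R 4.3.3 on 18520 genes kept by filterByExpr, after TMM scaling, with a Benjamini-Hochberg adjusted p under 0.05 as the threshold; scripts were tested on simulated data. Standard errors are approximate, as the log2 fold change over the root of F. Counting intervals are exact at 95%. Promoter windows came from RefSeq, and transcripts were aligned with BLAST 2.17.0.

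The main fit had no block. The design text calls the tissues paired, and both carry the numbers 2, 4 and 20. Libraries of 1 number were therefore treated as a pair, but only in the replicate block and in the ratios within numbers. Deviations of same-numbered libraries correlated at 0.19, 0.12 and 0.02. Tumor 4 correlated as well with colon 20 (0.12) and tumor 20 with colon 2 (0.02), so the pairing rests on the design text and not on these values. The members and all lists were chosen with earlier results of these data known. Named genes were all members, of each pathway list the 2 genes of lowest adjusted p and the gene of highest mean CPM, and 3 genes of most alike profile per tested mucin, at a mean of at least 5 CPM and without predicted genes and immune receptor segments. Alternatives were RLE, upper quartile and pan-epithelial scaling, genes over 1% of a library left out of scaling, a filter of at least 1 CPM in 3 libraries or none, DESeq2 1.42.0, voom in limma 3.58.1, limma on log2 FPKM with a pseudocount of 1 or 0.1, the block, and leaving out each library. Summing Muc3 with Muc3a, and Muc4 with Muc20, was chosen after seeing the data.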

Additional observations from a re-analysis of the deposited data

How the results depend on the processing

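No tested mucin changed the sign of its log2 fold change in any of the 17 planned and 2 added alternatives. With each library left out in turn, between 1 and 4 mucins were called lower and between 0 and 1 higher. The 1 lower mucin was left without tumor replicate 20, and the 4 lower and 1 higher came without colon replicate 2. In all other settings 2 or 3 mucins were called lower and 0 higher, the third being Muc4 with the replicate block, with no filter and without tumor replicate 4, and Muc20 by DESeq2. The replicate block changed no other call of a mucin. Across leave-one-out fits of all genes, 1905 to 2908 were called higher and 1904 to 2930 lower; the fewest were without colon replicate 4. Scaling to pan-epithelial genes gave 3078 higher and 2378 lower genes, Muc2 at -2.06 (adjusted p = 0.0229, edgeR) and Muc3 at -2.11 (adjusted p = 0.00313, edgeR). By limma, 3860 genes were higher and 2350 lower on log2(FPKM + 1), and 3911 higher and 2408 lower on log2(FPKM + 0.1), where the median of all genes moved to 0.12. Of core and extension enzymes, 3 were called lower with pan-epithelial scaling and 2 by limma on either FPKM scale, against 5 in the edgeR test; of initiating enzymes, limma on FPKM called 2 higher, against 1; and of goblet cell factors, limma on FPKM, the replicate block and the fit without colon replicate 2 each called 1 higher, against 0. The cause of these differences was not tested. Muc5ac, Muc5b and Muc16 were too low for a fitted fold change, and 3 libraries per tissue limit the precision of every fold.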
